A study of Gallus gallus with 24 samples.

Results

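The 10 genes described here encode nuclear receptors, coregulators and other transcription factors that set oxidative and fat-burning gene programmes in muscle. They are *PPARA*, *PPARD*, *RXRA*, *PPARGC1A*, *ESRRB*, *ESRRG*, *NRIP1*, *TFAM*, *NRF1* and *SIRT1*. Members were taken by gene symbol, and each symbol stood on 1 of the 20780 genes of the deposited table. All 10 also passed the filter on low values that left 10944 genes for testing. RNA came from the soleus (SOL), a mixed muscle of the lower leg, and from the pectoralis major (PEM), the fast-twitch breast muscle, of hens of the Guangyuan Grey chicken breed. Some hens ate a normal diet (CONT), others received high-fat feed for 15 days (SHFD) and the rest received it for 60 days (LHFD), and both muscles were dissected from the same birds at 210 days of age after 12 h without feed. Each of the 6 muscle-by-diet groups had 4 libraries, described by the submitters as biological replicates, and no group carried a genetic change.

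PPAR alpha and PPAR delta, encoded by *PPARA* and *PPARD*, are receptors for fatty acids that bind DNA as pairs with a retinoid X receptor such as RXR alpha, the product of *RXRA*. PGC-1 alpha, encoded by *PPARGC1A*, binds these receptors and the estrogen-related receptors (ERRs) of *ESRRB* and *ESRRG* and raises transcription of genes for fat oxidation and respiration, whereas RIP140, encoded by *NRIP1*, is a corepressor that acts on many of the same receptors. NRF1 activates nuclear genes for the respiratory chain and *TFAM*. TFAM packages mitochondrial DNA and helps to start its transcription, and SIRT1 is a deacetylase that acts on PGC-1 alpha. These roles are known mainly from mammals.

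The values are FPKM, fragment counts scaled by transcript length and by the mapped total of the library. Sequencing depth is unknown. Fold changes, standard errors (SE) and adjusted p-values are on the log2(FPKM + 1) scale, from limma with Benjamini-Hochberg adjustment over all 10944 genes, and a gene is said to be called, or to have risen or fallen, at an adjusted p below 0.05. The pseudocount of 1 makes the fold changes of genes near 1 FPKM smaller than the ratios of their levels. Libraries summed to 474667 to 525731 FPKM, with 9285 to 10590 genes at 1 FPKM or more. The 10 genes of the slow-fibre sarcomere list summed to 10555 to 34410 FPKM in SOL libraries, against 30.01 to 224 FPKM in PEM libraries. Library SHFD_SOL 4 stood apart in its group, with a slow-fibre sum of 34410 FPKM against 13569 to 16371 FPKM in the other 3, and a fast-fibre sum of 4140 FPKM against 15352 to 20928 FPKM. CONT_PEM 2 and LHFD_PEM 1 had macrophage marker sums of 653 and 389 FPKM, above the medians of 137 and 157 FPKM in their groups.

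*RXRA* was the most abundant of the 10 in all 3 PEM groups and *TFAM* in all 3 SOL groups. In control SOL the order by mean FPKM was *TFAM* at 31.7, *RXRA* at 18.4, *PPARD* at 17.99, *ESRRG* at 10.1, *SIRT1* at 7.93, *PPARGC1A* at 5.97, *ESRRB* at 5.85, *NRF1* at 5.68, *PPARA* at 4.14 and *NRIP1* at 3.85. In control PEM it was *RXRA* at 77.7, *TFAM* at 23.4, *PPARD* at 19.3, *NRF1* at 14.3, *NRIP1* at 10.9, *SIRT1* at 8.41, *ESRRG* at 2.61, *PPARA* at 1.26, *PPARGC1A* at 1.12 and *ESRRB* at 0.802. Across the 6 groups the highest mean was 9.49 times the lowest for *PPARA*, 7.29 times for *ESRRB*, 7.25 times for *RXRA*, 6.88 times for *NRIP1* and 6.61 times for *PPARGC1A*. The span was narrower for *ESRRG* at 5.37 times, *NRF1* at 3.75 times, *PPARD* at 2.22 times, *TFAM* at 1.78 times and *SIRT1* at 1.26 times. Libraries of a group agreed most closely for *TFAM*, whose median coefficient of variation over groups was 9.02%, and least for *PPARA*, at 45.8%.

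**Figure D1:**
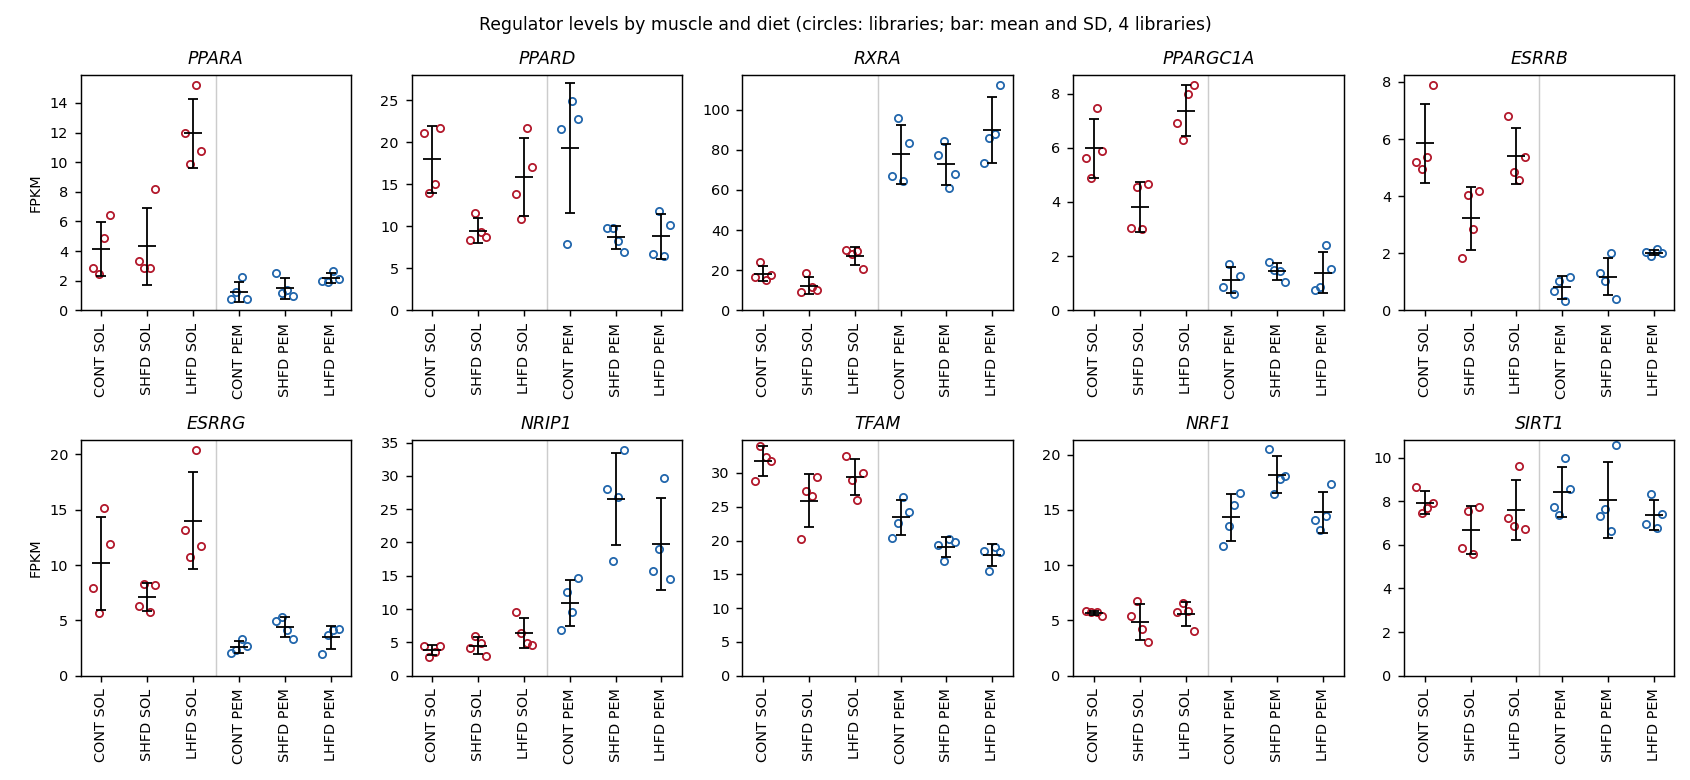
FPKM of the 10 regulators (vertical axes from 0, one panel a gene) in SOL (red) and PEM (blue) libraries on each diet; circles are libraries, and black bars are the mean and SD of 4 libraries. *RXRA*, *NRIP1* and *NRF1* sit lower in SOL than in PEM, *PPARGC1A*, *ESRRB* and *ESRRG* sit higher, and *PPARA* is highest in LHFD SOL, at 9.89 to 15.2 FPKM.

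SOL and PEM differed in most of these genes on every diet. In control hens 8 of the 10 were called, 5 higher and 3 lower in SOL, while 50.7% of all genes tested were called in that comparison, 30.7% higher and 20% lower. On SHFD the same 8 genes were called in the same directions (51.6% of all genes called, 26.5% higher and 25.1% lower), and on LHFD these and *PPARD* were (43.8% of all genes called, 28.9% higher and 14.9% lower). A count of 8 or 9 of 10 thus stands beside a background in which about as many genes were called as not. The median log2 fold change of SOL against PEM over the 10 genes was 0.21 on CONT, 0.26 on SHFD and 0.74 on LHFD, against 0.12, 0.04 and 0.14 over all genes, and it averages over changes in both directions. In whole-muscle RNA, fewer cells of a type and less RNA per cell cannot be told apart.

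*PPARGC1A*, the coactivator, had 5.62, 4.90, 7.48 and 5.89 FPKM in control SOL, against 0.856, 1.71, 0.621 and 1.27 FPKM in control PEM. On SHFD it had 3.05, 4.54, 3.02 and 4.67 FPKM in SOL, against 1.80, 1.49, 1.45 and 1.04 FPKM in PEM. On LHFD it had 6.91, 6.28, 7.98 and 8.32 FPKM in SOL, against 0.753, 0.873, 2.42 and 1.51 FPKM in PEM. Every SOL library lay above every PEM library of its diet. The log2 fold change of SOL against PEM was 1.74 (SE 0.19, adjusted p = 2.71e-07) on CONT, 0.97 (SE 0.19, adjusted p = 0.000313) on SHFD and 1.85 (SE 0.19, adjusted p = 1.46e-07) on LHFD. A further PGC-1 family gene, *PPRC1*, averaged 7.41 ± 1.11 FPKM in control SOL and 4.21 ± 0.704 FPKM in control PEM (SD, n = 4 each). *PPARGC1B*, another of that family and one of the fixed genes, was not found under its symbol.

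*NRIP1*, the corepressor, ran the other way. It had 4.53, 2.87, 3.58 and 4.42 FPKM in control SOL, against 6.87, 12.6, 9.50 and 14.6 FPKM in control PEM. On SHFD it had 4.12, 5.92, 4.96 and 2.93 FPKM in SOL, against 27.99, 17.2, 26.9 and 33.9 FPKM in PEM. On LHFD it had 9.63, 6.44, 4.96 and 4.58 FPKM in SOL, against 15.7, 19.1, 29.7 and 14.5 FPKM in PEM. The ranges of the muscles did not meet on any diet, and the log2 fold change of SOL against PEM was -1.26 (adjusted p = 0.000346), -2.32 (adjusted p = 2.53e-07) and -1.48 (adjusted p = 8.68e-05) on CONT, SHFD and LHFD.

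Within each library, the ratio of *NRIP1* to *PPARGC1A* FPKM therefore differed by more than 10-fold between the muscles when medians are compared. In SOL the median ratio was 0.668 on CONT, 1.33 on SHFD and 0.824 on LHFD, with single libraries between 0.478 and 1.64. In PEM it was 9.76 on CONT, 17.0 on SHFD and 16.6 on LHFD, with single libraries between 7.35 and 32.5. No SOL library reached the lowest PEM ratio. Ratios of this kind were formed for 4 pairs of the genes as descriptions, without a test.

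**Figure D2:**
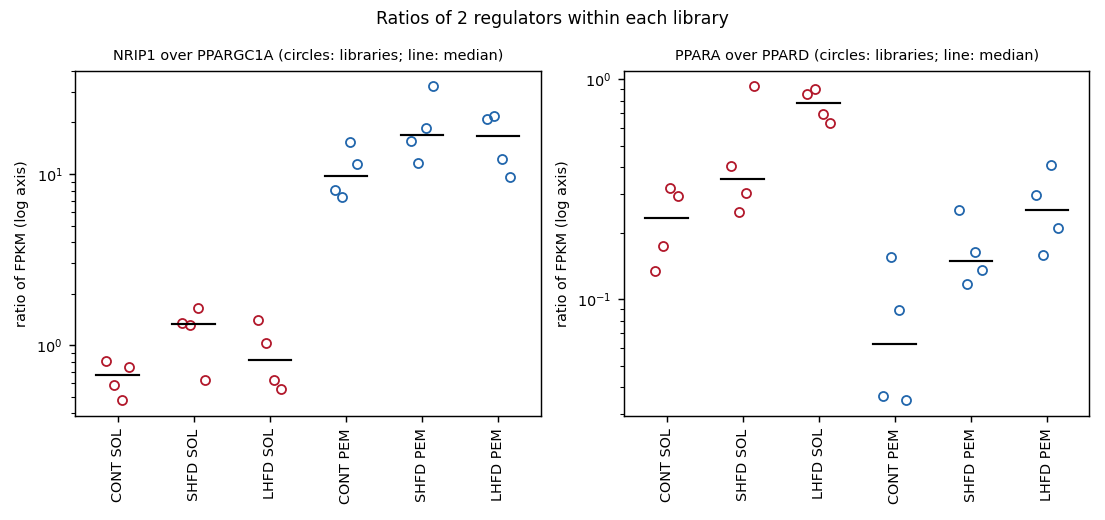
Ratio of *NRIP1* to *PPARGC1A* (left) and of *PPARA* to *PPARD* (right) in each library, on log axes, with SOL groups in red and PEM groups in blue and a line at each median. The left panel separates the muscles, with medians of 0.668 to 1.33 in SOL and 9.76 to 17.0 in PEM; in the right panel the LHFD SOL libraries lie at 0.631 to 0.907.

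The ERR genes were both higher in SOL. *ESRRB* had 5.18, 4.94, 5.38 and 7.88 FPKM in control SOL, against 0.671, 1.04, 0.319 and 1.18 FPKM in control PEM. Its log2 fold change of SOL against PEM was 1.93 (SE 0.21, adjusted p = 2.14e-07) on CONT, 0.96 (SE 0.21, adjusted p = 0.000768) on SHFD and 1.07 (SE 0.21, adjusted p = 0.000374) on LHFD. On SHFD the ranges met, since SHFD_SOL 1 had 1.85 FPKM and SHFD_PEM 3 had 1.999 FPKM. By group means *ESRRG* was the more abundant ERR of the pair in both muscles. In LHFD_PEM 1 alone it was the lower, at 1.92 FPKM against 2.04 FPKM for *ESRRB*. *ESRRG* had 7.91, 5.63, 15.2 and 11.9 FPKM in control SOL, against 2.09, 2.33, 3.34 and 2.67 FPKM in control PEM. The *ESRRG* difference was 1.56 on CONT (adjusted p = 1.79e-05), 0.58 on SHFD (adjusted p = 0.047) and 1.74 on LHFD (adjusted p = 6.21e-06), all log2 fold changes of SOL against PEM. Of the 24 fits that each left out 1 library, 12 kept the SHFD call, with adjusted p-values from 0.0289 to 0.135, the highest without SHFD_PEM 4. The adjusted p of that call was 0.0764 with quantile normalization and 0.0854 with no expression filter.

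Of the fatty acid receptors, *PPARA* was higher in SOL on every diet and *PPARD* on LHFD alone by the test. *PPARA* had 2.84, 2.45, 4.86 and 6.41 FPKM in control SOL, against 0.786, 1.23, 2.22 and 0.794 FPKM in control PEM, ranges that did not meet. The log2 fold change of SOL against PEM for *PPARA* was 1.16 (SE 0.27, adjusted p = 0.00131) on CONT, 1.03 (SE 0.27, adjusted p = 0.00346) on SHFD and 2.02 (SE 0.27, adjusted p = 4.49e-06) on LHFD. *PPARD* had 21.2, 14.0, 15.1 and 21.7 FPKM in control SOL, against 21.6, 7.91, 24.9 and 22.8 FPKM in control PEM, and its log2 fold change there was -0.01 with a 95% interval from -0.57 to 0.56. On LHFD *PPARD* had 13.9, 10.9, 21.7 and 17.0 FPKM in SOL, against 6.67, 11.9, 6.46 and 10.2 FPKM in PEM, a log2 fold change of 0.78 (SE 0.27, adjusted p = 0.0235) with overlapping ranges. That call was lost without LHFD_SOL 3, LHFD_SOL 4, LHFD_PEM 1 or LHFD_PEM 3, with adjusted p-values of 0.0866, 0.0569, 0.0658 and 0.0773, and its adjusted p was 0.0551 with quantile normalization. The *PPARD* difference between muscles on LHFD minus that on CONT was not called (0.79, adjusted p = 0.88). The third family member, *PPARG*, known for its role in fat cells, averaged 0.236 to 0.713 FPKM over the 6 groups and was below the filter for testing; it reached 2.21 FPKM in CONT_PEM 2.

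*RXRA*, the shared partner of the PPARs, was lower in SOL by a wide margin. It had 16.9, 23.96, 15.1 and 17.6 FPKM in control SOL, against 66.9, 95.8, 64.6 and 83.3 FPKM in control PEM. On SHFD it had 9.04, 18.8, 11.6 and 10.2 FPKM in SOL, against 77.6, 84.4, 61.0 and 68.0 FPKM in PEM. On LHFD it had 29.8, 28.2, 29.8 and 20.5 FPKM in SOL, against 73.6, 85.7, 87.8 and 112 FPKM in PEM. The lowest PEM library, at 61.0 FPKM, was above the highest SOL library, at 29.8 FPKM. The log2 fold change was -2.02 (adjusted p = 3.21e-08), -2.50 (adjusted p = 1.48e-09) and -1.69 (adjusted p = 5.67e-07) on CONT, SHFD and LHFD, placing *RXRA* at rank 248, 100 and 326 among the 10944 genes by p. The related receptor gene *RXRG* averaged at most 0.469 FPKM in any group.

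The mitochondrial regulators split. *TFAM* was modestly higher in SOL, with 28.8, 34.0, 32.4 and 31.8 FPKM in control SOL, against 20.4, 22.7, 26.4 and 24.3 FPKM in control PEM. The log2 fold change for *TFAM* was 0.43 (SE 0.11, adjusted p = 0.00356) on CONT, 0.41 (SE 0.11, adjusted p = 0.00451) on SHFD and 0.69 (SE 0.11, adjusted p = 4.75e-05) on LHFD. Its ranges met on SHFD, where SHFD_SOL 1 had 20.2 FPKM and SHFD_PEM 3 had 20.3 FPKM. *NRF1* was lower in SOL, with 5.83, 5.79, 5.72 and 5.37 FPKM in control SOL, against 11.8, 13.6, 15.4 and 16.5 FPKM in control PEM. Its log2 fold change was -1.19 on CONT (adjusted p = 3.25e-06), -1.75 on SHFD (adjusted p = 1.66e-08) and -1.28 on LHFD (adjusted p = 1.81e-06). The median ratio of *NRF1* to *TFAM* FPKM was 0.173, 0.202 and 0.201 in SOL on CONT, SHFD and LHFD, against 0.592, 0.942 and 0.805 in PEM.

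*SIRT1* was not called in any of the 11 comparisons. It lay between 5.58 and 9.63 FPKM in SOL libraries and between 6.63 and 10.6 FPKM in PEM libraries. The 95% interval of its log2 fold change of SOL against PEM ran from -0.35 to 0.21 on CONT, from -0.51 to 0.05 on SHFD and from -0.25 to 0.31 on LHFD.

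**Figure D3:**
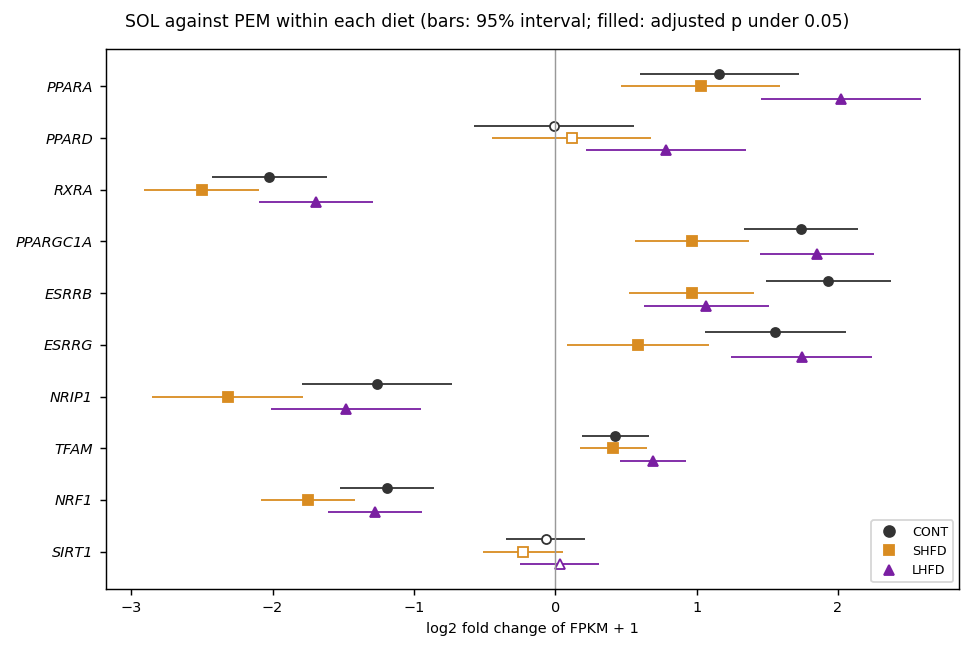
Log2 fold change of SOL against PEM (horizontal axis) for each regulator on CONT (circles), SHFD (squares) and LHFD (triangles), with 95% intervals; filled symbols were called. *RXRA*, *NRIP1* and *NRF1* lie left of 0 on all diets, between -2.50 and -1.19, and *SIRT1* lies within 0.23 of 0 on all diets.

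Lists of genes that work with or downstream of these regulators were read in the same comparisons. Of 18 known PPAR target genes tested, 14 were higher and 2 lower in control SOL than in control PEM, with a median log2 fold change of 1.90 against 0.12 over all genes. *CD36*, a fatty acid transporter, had 159 ± 62.3 FPKM in control SOL and 2.38 ± 0.887 FPKM in control PEM (log2 fold change 5.52, adjusted p = 5.67e-11). *FABP3*, which carries fatty acids in the cytosol, had 3043 ± 1351 FPKM in control SOL and 117 ± 27.3 FPKM in control PEM (4.60, adjusted p = 1.2e-09). *CPT2* (1.85) and *ACADL* (1.95), enzymes of mitochondrial fat oxidation, were also higher. *PDK4*, the kinase that restrains pyruvate oxidation, was higher by 2.87 (adjusted p = 0.0015), and *ANGPTL4*, a secreted lipase inhibitor and classic PPAR target, was not called (0.31, adjusted p = 0.363). Its levels were near the pseudocount of 1, at 1.03 ± 0.854 FPKM in control SOL and 0.607 ± 0.521 FPKM in control PEM. *CPT1A*, the liver-type carnitine palmitoyltransferase, was lower in SOL (-1.40, adjusted p = 5.24e-05). In the authors' own annotation of the PPAR signalling pathway, a list added after the data had been seen, 21 of the 44 genes tested besides the members were higher and 5 lower in control SOL. This list shares 10 genes with the PPAR targets, 22.7% of its own genes and 55.6% of the targets.

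Of 22 ERR and PGC-1 target genes, 18 were higher and 1 lower in control SOL, with a median log2 fold change of 1.03. *FNDC5*, the precursor of irisin, had 52.0 ± 11.2 FPKM in control SOL and 0.384 ± 0.256 FPKM in control PEM (log2 fold change 5.25, adjusted p = 3.15e-14). *COX6A1* (4.17), a subunit of cytochrome oxidase, *CS* (1.497), the first enzyme of the citrate cycle, and *UQCRC1* (1.63), a subunit of complex III, were the next by p. All 13 mitochondrially encoded genes were higher in control SOL, with a median of 0.96, while of 11 nuclear genes for transcribing and replicating mitochondrial DNA 1 was higher (*POLG*, the DNA polymerase, 0.34, adjusted p = 0.0171) and 1 lower (*MTERF3*, a negative regulator of mitochondrial transcription, -0.53, adjusted p = 0.0498). Of 19 partners and coregulators 3 were higher and 9 lower in control SOL, with a median of -0.28. The lowest p-values belonged to the row named *NAMPTP1*, taken here for the NAD-producing enzyme NAMPT (-2.67, adjusted p = 3.55e-08), the coactivator *NCOA1* (-0.60, adjusted p = 0.000147), *YY2*, taken for the factor YY1 (-0.73, adjusted p = 0.000183), and *PRKAA2*, a catalytic subunit of the energy sensor AMPK (-1.39, adjusted p = 0.000187). The lists were chosen with earlier results of these data known, so their direction between muscles is not independent evidence.

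Marker genes of some other cell types moved with the muscle as well. In control SOL all 8 endothelial markers tested, 7 of 8 smooth muscle and pericyte markers and 4 of 6 adipocyte markers were higher than in control PEM, and 1 adipocyte marker, *DGAT2*, was lower. The lists are not exclusive to a cell type. *LPL* of the adipocyte list is also among the PPAR targets. *DES* of the smooth muscle list averaged 3327 ± 413 FPKM in control SOL, where the next, *RGS5*, had 124 ± 32.4 FPKM. Of the other lists, 1 of 8 fibroblast, 1 of 6 macrophage, 2 of 5 satellite cell and 1 of 4 red blood cell markers were higher, and 1 satellite cell marker and 1 of 5 lymphocyte markers were lower. These counts stand beside 30.7% of all genes tested called higher in this comparison and 20% called lower. Endothelial marker sums were 125 to 166 FPKM in control SOL libraries and 42.6 to 85.1 FPKM in control PEM libraries, and adipocyte sums were 121 to 152 FPKM in control SOL and 51.6 to 67.2 FPKM in control PEM, apart from CONT_PEM 2 at 122 FPKM. The fibroblast sum of that library, 196 FPKM, and its lymphocyte sum, 44.05 FPKM, also lay above those of the other 3 control PEM libraries, which reached at most 90.7 and 11.7 FPKM. No marker of these lists was at 0 in all 24 libraries. Their part in the differences of the regulators was not tested.

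In SOL, SHFD and CONT differed in none of the 10 genes by the adjusted test, where 0.557% of all genes were called (0.164% higher and 0.393% lower). Unadjusted p-values below 0.05 were found for 5 of them, all with lower values on SHFD, and 8 of the 10 log2 fold changes were negative, against a median of -0.12 over all genes. *PPARD* had 8.33, 11.6, 9.30 and 8.80 FPKM on SHFD, against 21.2, 14.0, 15.1 and 21.7 FPKM on CONT, a log2 fold change of -0.84 (SE 0.27, adjusted p = 0.127, or 0.0461 when CONT_PEM 2 was left out of the fit). *ESRRB* had 1.85, 4.05, 2.84 and 4.18 FPKM on SHFD, against 5.18, 4.94, 5.38 and 7.88 FPKM on CONT (-0.72, SE 0.21, adjusted p = 0.097). *PPARGC1A* had a difference of -0.54 (SE 0.19, adjusted p = 0.167). In these 3 genes the ranges of the diets did not meet. How many of all genes had ranges apart was not counted, here or for the other comparisons, so ranges are given as descriptions. *RXRA* differed by -0.56 (adjusted p = 0.149) and had an adjusted p of 0.036 when SHFD_SOL 2 was left out. All 8 fast-fibre genes also had negative log2 fold changes of SHFD against CONT in SOL, with a median of -0.52, and none was called. Fast-fibre sums on SHFD were 4140 FPKM in SHFD_SOL 4 and 15352 to 20928 FPKM in the other libraries. The latter lay within the control SOL range of 13143 to 22718 FPKM. How far the changes of single fast-fibre genes rested on SHFD_SOL 4 was not tested. Nor was the part of these genes in the differences of the regulators.

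After 60 days *PPARA* rose in SOL, the 1 of the 10 genes that was called (0.521% of all genes were, 0.228% higher and 0.292% lower). It had 11.9, 9.89, 15.2 and 10.8 FPKM on LHFD, against 2.84, 2.45, 4.86 and 6.41 FPKM on CONT. The lowest LHFD library was above the highest control library, and the log2 fold change was 1.39 (SE 0.27, adjusted p = 0.0202). It ranked 24 of 10944 genes by p. With a pseudocount of 0.1 the adjusted p was 0.067. Leaving out CONT_SOL 1, CONT_SOL 2, LHFD_SOL 1 or LHFD_SOL 3 gave adjusted p-values of 0.089, 0.074, 0.0611 and 0.0794, with fold changes over all 24 such fits from 1.22 to 1.59. Slow-fibre sums were 10764, 12031, 10555 and 23576 FPKM in the LHFD SOL libraries and 15058 to 23443 FPKM in the control ones. Of the 10 slow-fibre genes 8 had negative log2 fold changes of LHFD against CONT, with a median of -0.43. Of the 8 fast-fibre genes 6 had positive ones, with a median of 0.25, against -0.06 over all genes. None of these genes was called between these diets, and their part in the *PPARA* difference was not tested. *NRIP1* in SOL also separated by range, with 9.63, 6.44, 4.96 and 4.58 FPKM on LHFD and 4.53, 2.87, 3.58 and 4.42 FPKM on CONT, but was not called (0.58, SE 0.26, adjusted p = 0.364).

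Between the high-fat diets, *PPARA*, *RXRA* and *PPARGC1A* were higher in SOL on LHFD than on SHFD, 3 of 10 where 0.886% of all genes were called (0.621% higher and 0.265% lower). *RXRA* had 29.8, 28.2, 29.8 and 20.5 FPKM on LHFD, against 9.04, 18.8, 11.6 and 10.2 FPKM on SHFD, with a log2 fold change of 1.10 (SE 0.20, adjusted p = 0.00742). It ranked 17 of 10944 genes by p. *PPARA* had 11.9, 9.89, 15.2 and 10.8 FPKM on LHFD, against 3.37, 2.89, 2.83 and 8.18 FPKM on SHFD (1.37, SE 0.27, adjusted p = 0.0136). *PPARGC1A* had 6.91, 6.28, 7.98 and 8.32 FPKM on LHFD, against 3.05, 4.54, 3.02 and 4.67 FPKM on SHFD (0.81, SE 0.19, adjusted p = 0.0481). None of these ranges met.

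The other 7 genes had positive log2 fold changes of LHFD against SHFD in SOL as well, between 0.16 for *SIRT1* and 0.86 for *ESRRG*, and the median over the 10 was 0.64 against 0.07 over all genes. The share of all genes with positive changes was not counted. *ESRRG* had 13.1, 10.7, 20.4 and 11.7 FPKM on LHFD, against 6.30, 8.26, 5.74 and 8.19 FPKM on SHFD, ranges apart, with an adjusted p of 0.0957. *ESRRB* had 6.79, 4.86, 4.58 and 5.35 FPKM on LHFD, against 1.85, 4.05, 2.84 and 4.18 FPKM on SHFD, also apart, with an adjusted p of 0.206. The *RXRA* call was kept in all 24 fits that left out 1 library, the *PPARA* call in 20 and the *PPARGC1A* call in 7. The *PPARA* call was lost without SHFD_SOL 1, SHFD_SOL 3, LHFD_SOL 1 or LHFD_SOL 3 (adjusted p-values of 0.0711, 0.0599, 0.0521 and 0.0675), and that of *PPARGC1A* had adjusted p-values from 0.0256 to 0.189, the highest without SHFD_SOL 1. In a fit of these SOL groups alone the adjusted p-values were 0.0802, 0.0864 and 0.0762 for *RXRA*, *PPARA* and *PPARGC1A*. The *PPARGC1A* call was also lost with a pseudocount of 0.1 (adjusted p = 0.168) and with no expression filter (adjusted p = 0.0977). Fibre markers moved with this contrast: all 8 fast-fibre genes tested had positive log2 fold changes of LHFD against SHFD, with a median of 0.73, and 9 of the 10 slow-fibre genes had negative ones, with a median of -0.61. Of these genes *MYLK2* alone was called, the myosin light chain kinase of skeletal muscle in the fast-fibre list, with 348 ± 83.4 FPKM on LHFD and 129.8 ± 42.4 FPKM on SHFD (1.45, adjusted p = 0.00193). Fast-fibre sums were 13800 to 23846 FPKM in LHFD SOL libraries and 4140 to 20928 FPKM in SHFD SOL libraries. The part of fibre makeup in the regulators' differences was not tested. Without SHFD_SOL 4, the library with the high slow-fibre sum, the differences of *PPARA*, *RXRA* and *PPARGC1A* were 1.67, 1.03 and 0.89 (adjusted p-values of 0.00181, 0.0204 and 0.0456).

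In PEM the calls fell on other genes. On SHFD *NRIP1* rose, with 27.99, 17.2, 26.9 and 33.9 FPKM on SHFD, against 6.87, 12.6, 9.50 and 14.6 FPKM on CONT. The lowest SHFD library was above the highest control library, and the log2 fold change was 1.22 (SE 0.26, adjusted p = 0.0205). It was the only one of the 10 called, beside 1.07% of all genes (0.539% higher and 0.53% lower). The call was lost without CONT_PEM 1, CONT_PEM 3, SHFD_PEM 1, SHFD_PEM 3 or SHFD_PEM 4, where its adjusted p lay between 0.0578 and 0.0701, and the adjusted p was 0.207 in a fit of these PEM groups alone. *PPARD* had 9.84, 9.81, 8.29 and 6.94 FPKM on SHFD, against 21.6, 7.91, 24.9 and 22.8 FPKM on CONT, and was not called (-0.96, SE 0.27, adjusted p = 0.087). Without CONT_PEM 2, the control library with the high macrophage sum, its log2 fold change was -1.32 with an adjusted p of 0.005. Slow-fibre sums in PEM were 94.2 to 224 FPKM on SHFD and 30.1 to 67.8 FPKM on CONT. Of the 10 slow-fibre genes 6 had positive log2 fold changes, 4 had negative ones and 1 was called higher, so the sum does not describe each gene. *MYH7B* averaged 0.318 ± 0.328 FPKM on SHFD and 0.903 ± 1.22 FPKM on CONT. Myoglobin (*MB*), also in this list, had its smallest p for the SHFD effect in SOL minus in PEM (-1.88, adjusted p = 0.512). Fast-fibre sums were 44024 to 51757 FPKM on SHFD and 45873 to 52099 FPKM on CONT, and no fast-fibre gene was called. The part of fibre makeup was not tested.

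On LHFD 3 of the 10 were called in PEM, where 6.94% of all genes were (2.05% higher and 4.9% lower). *ESRRB* rose, with 2.04, 1.92, 2.15 and 2.01 FPKM on LHFD, against 0.671, 1.04, 0.319 and 1.18 FPKM on CONT (log2 fold change 0.77, SE 0.21, adjusted p = 0.0303). *PPARD* fell, with 6.67, 11.9, 6.46 and 10.2 FPKM on LHFD, against 21.6, 7.91, 24.9 and 22.8 FPKM on CONT (-0.98, SE 0.27, adjusted p = 0.0319). *TFAM* fell, with 18.5, 15.5, 19.0 and 18.4 FPKM on LHFD, against 20.4, 22.7, 26.4 and 24.3 FPKM on CONT (-0.37, SE 0.11, adjusted p = 0.0488). The ranges were apart for *ESRRB* and *TFAM* and met for *PPARD* through CONT_PEM 2, without which *PPARD* differed by -1.34 with an adjusted p of 0.000965. Of the 24 fits that left out 1 library, 18 kept *ESRRB*, 19 kept *PPARD* and 4 kept *TFAM*. The highest adjusted p was 0.118 for *ESRRB* and for *PPARD*, both without CONT_PEM 3, and 0.165 for *TFAM*. With no expression filter none of the 3 was called. With quantile normalization *PPARD* (adjusted p = 0.0783) and *TFAM* (adjusted p = 0.0711) were not called. Scaling to equal nuclear-encoded sums also lost *TFAM* (adjusted p = 0.0792). *NRIP1*, at 15.7, 19.1, 29.7 and 14.5 FPKM on LHFD, was not called against CONT (0.80, SE 0.26, adjusted p = 0.0635), but was without CONT_PEM 4 (adjusted p = 0.0391) and with quantile normalization (adjusted p = 0.0422). In PEM *PPARA* averaged 2.17 ± 0.337 FPKM on LHFD and 1.26 ± 0.677 FPKM on CONT. Its log2 fold change had the same sign as in SOL and was not called (0.53, SE 0.27, adjusted p = 0.265).

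LHFD and SHFD differed in none of the 10 genes in PEM, where 0.201% of all genes were called (0.119% higher and 0.0822% lower), and 1 unadjusted p-value was below 0.05. That was *ESRRB*, with a log2 fold change of 0.52 (adjusted p = 0.341). Comparisons that share a group of libraries, such as both high-fat diets against CONT, are not independent of each other.

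**Figure D4:**
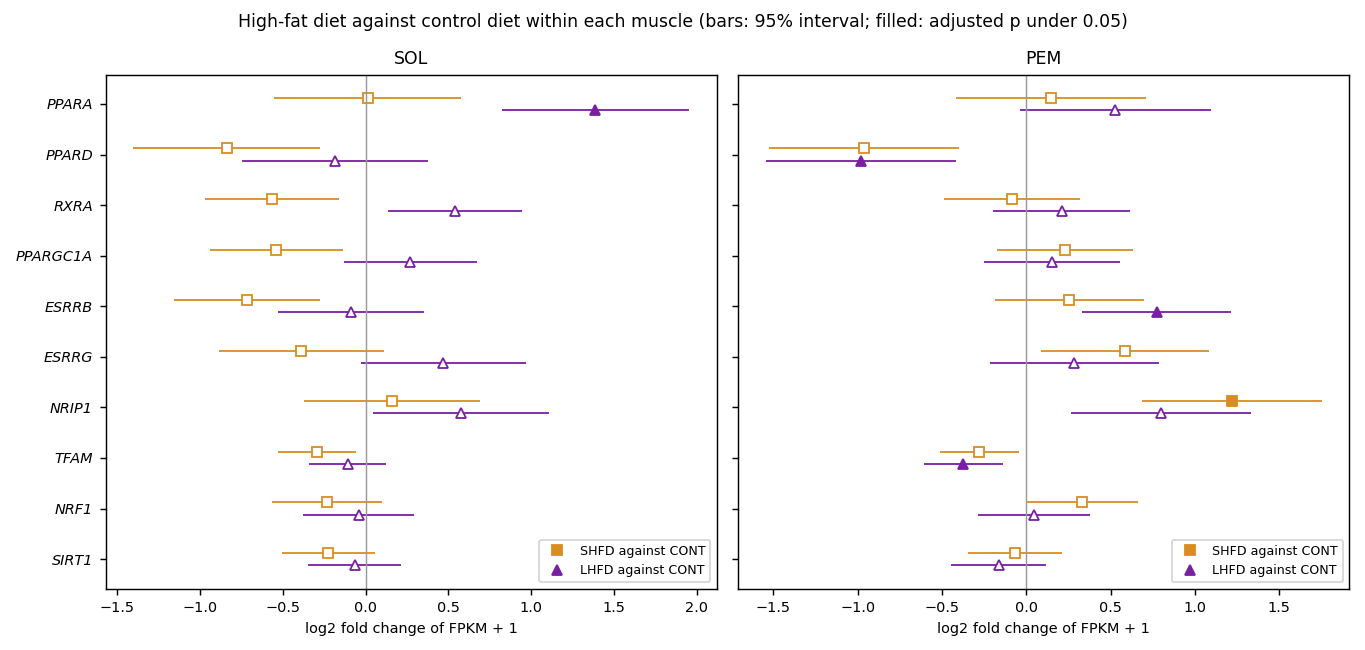
Log2 fold change of SHFD (squares) and LHFD (triangles) against CONT for each regulator, in SOL (left) and PEM (right), with 95% intervals; filled symbols were called. In SOL *PPARA* on LHFD is the filled symbol, at 1.39; in PEM these are *NRIP1* on SHFD at 1.22 and *ESRRB* at 0.77, *TFAM* at -0.37 and *PPARD* at -0.98 on LHFD.

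Whether a diet acted differently in the muscles was tested as the effect in SOL minus that in PEM. None of the 10 genes was called for SHFD, where 0.00914% of all genes were, and none for LHFD, where 0% were. At an unadjusted p below 0.05 there were 5 for SHFD and 2 for LHFD. For SHFD these were *PPARGC1A* (-0.77), *ESRRB* (-0.97), *ESRRG* (-0.97), *NRIP1* (-1.06) and *NRF1* (-0.56), with adjusted p-values of 0.536 to 0.648. For LHFD they were *PPARA* (0.86, adjusted p = 0.818) and *ESRRB* (-0.86, adjusted p = 0.654). The 95% intervals, not adjusted for the number of genes, ran from 0.06 to 1.66 for *PPARA* on LHFD and from -1.81 to -0.30 for *NRIP1* on SHFD. After adjustment over all genes tested (adjusted p = 0.818 and 0.581), neither the rise of *PPARA* in SOL nor that of *NRIP1* in PEM was shown to belong to 1 muscle.

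Few genes of the target lists were called between diets. In SOL none of the 22 ERR and PGC-1 targets was called for either high-fat diet against CONT, and of the 18 PPAR targets 1 was, *ACSL1*, which activates long-chain fatty acids, with 94.7 ± 14.3 FPKM on LHFD and 224 ± 72.1 FPKM on CONT (-1.18, adjusted p = 0.0369). *ACSL1* was thus lower in the comparison in which *PPARA* was higher. The median over the 18 PPAR targets in SOL was -0.20 on LHFD and -0.36 on SHFD, against -0.06 and -0.12 over all genes. *PDK4* had 672 ± 286 FPKM on LHFD and 950 ± 309 FPKM on CONT in SOL (-0.58, adjusted p = 0.817).

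In PEM on LHFD 2 of the 18 PPAR targets fell and none rose. *CPT1A* had 7.27 ± 2.85 FPKM on LHFD and 21.2 ± 3.08 FPKM on CONT (-1.47, adjusted p = 0.00152), and *ACSL1* had 16.4 ± 3.05 FPKM on LHFD and 34.2 ± 7.46 FPKM on CONT (-1.01, adjusted p = 0.0186). Of the 44 genes of the annotated PPAR pathway 5 fell and none rose on LHFD in PEM, 11.4% beside 4.9% of all genes. They were *CPT1A* and *ACSL1* again, *DBI*, which binds acyl-CoA (-0.78, adjusted p = 0.00601), *SLC27A1*, a fatty acid transporter (-1.87, adjusted p = 0.00775), and a gene without a symbol. *SLC27A1* had 5.90 ± 2.17 FPKM on LHFD and 28.8 ± 19.6 FPKM on CONT, where single libraries lay between 7.46 and 54.5 FPKM. *CPT1A* was lower on LHFD than on SHFD too (-1.35, adjusted p = 0.0153). Of the partners and coregulators *LPIN1*, which dephosphorylates phosphatidate and coactivates PPAR alpha in mammals, fell on both diets in PEM. It had 10.6 ± 2.40 FPKM on LHFD, 12.6 ± 4.51 FPKM on SHFD and 35.0 ± 20.6 FPKM on CONT, with log2 fold changes of -1.52 (adjusted p = 0.00258) on LHFD and -1.32 (adjusted p = 0.0167) on SHFD against CONT, and CONT_PEM 3 alone had 65.8 FPKM. *MTERF3* fell on LHFD (-0.72, adjusted p = 0.0498), as the only one called of 11 genes of the mitochondrial DNA machinery, and none of the 13 mitochondrially encoded genes was called for any diet comparison.

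**Figure D5:**
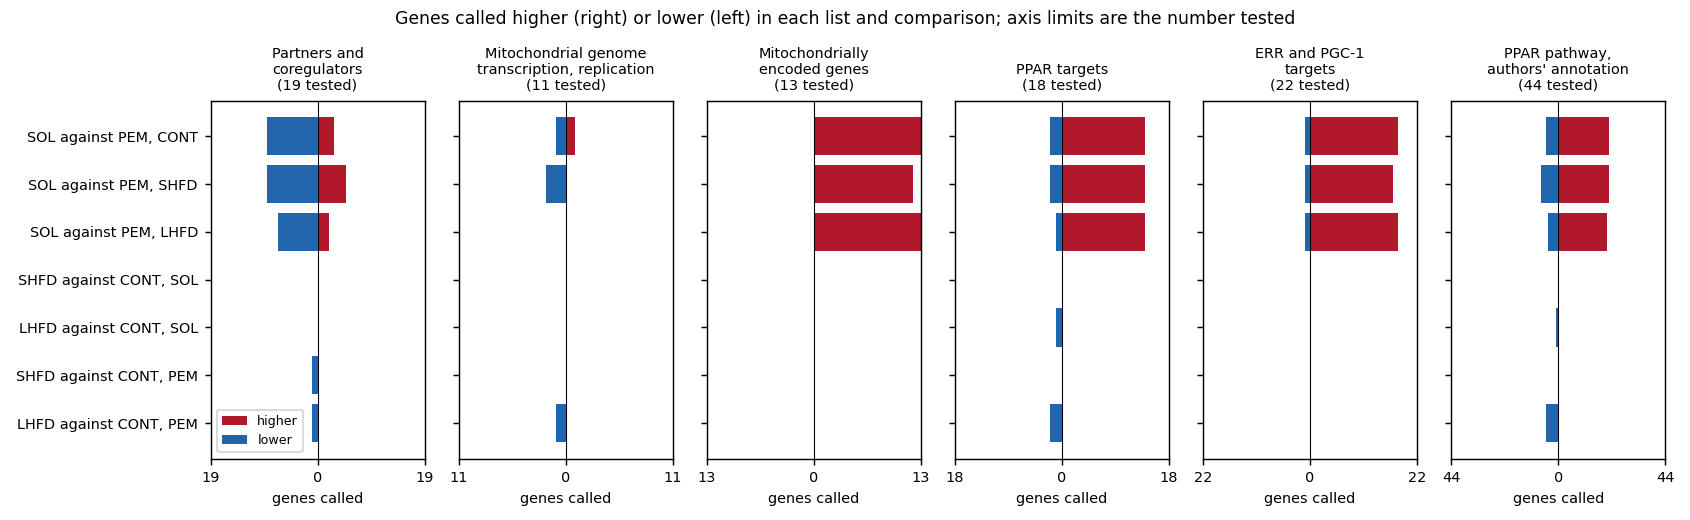
Number of genes called higher (red, right) or lower (blue, left) in 6 lists, for SOL against PEM on each diet and for each high-fat diet against CONT in each muscle; each axis ends at the number of genes tested. The muscle comparisons hold nearly all calls, such as 14 higher and 2 lower of 18 PPAR targets in control hens, and the diet comparisons hold at most 5 in any list.

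For the 8 regulators called between muscles in control hens, which leaves out *PPARD* and *SIRT1*, the genes whose pattern over all 24 libraries lay closest were sought among 5206 named genes that averaged 5 FPKM or more, by the root mean square difference of centred log2 values. For *PPARA*, with an SD of 0.92 over libraries, these were *PRKAG2*, a regulatory subunit of AMPK, at a distance of 0.349, and *TINAGL1*, a secreted matrix protein, at 0.474. *PRKAG2* had 20.3 to 44.9 FPKM in LHFD SOL, against 6.57 to 17.5 FPKM in control SOL, and lay at 4.27 to 5.97 FPKM in PEM. It was picked for its likeness to *PPARA* over these same libraries, so this pattern is not independent evidence. For *ESRRG* they were *MCCC2* (0.367) and *MCCC1* (0.368), which encode the subunits of methylcrotonyl-CoA carboxylase, a mitochondrial enzyme of leucine breakdown. *MCCC1* averaged 18.5 to 21.4 FPKM over the SOL groups and 7.18 to 8.51 FPKM over the PEM groups.

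For *PPARGC1A* the closest were *DNAJC28* (0.321) and *PALM2AKAP2* (0.332), and for *ESRRB* they were *ANGPTL2* (0.331) and *ATP2B1* (0.355). *RXRA* lay closest to *ALKBH5* (0.324), an RNA demethylase, and *OSBP2* (0.329). *NRIP1* lay closest to *RYR3* (0.392), a calcium release channel, and *ZBED4* (0.425). *RYR3* averaged 33.6, 35.9 and 40.3 FPKM in SOL on CONT, SHFD and LHFD, and 71.1, 107 and 105 FPKM in PEM. *TFAM* lay closest to *RBMS2* (0.118) and *SMARCB1* (0.124), and *NRF1* to *PDS5A* (0.183) and *COPS2* (0.194). The libraries of a muscle share its whole fibre makeup, so these distances take in the split between SOL and PEM and are given as descriptions. The levels of the genes found were part of the search and are descriptions too.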

How the data were processed

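RNA from 24 muscle libraries was sequenced, 4 for each of 6 muscle-by-diet groups, taken from the sample labels. The authors deposited 1 FPKM value per gene and library. Per the labels' protocols, reads were filtered with fastp, mapped with HISAT2 to GRCg6a and quantified with StringTie v1.3.3b. No counts were used, so depth and counting error are unknown, and no source used here states how strand was handled.

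Genes reaching 1 FPKM in 4 or more libraries (10944 of 20780) entered limma 3.58.1 (R 4.3.3) on the log2(FPKM + 1) scale, with a mean-variance trend, in 1 fit of all 24 libraries (18 residual degrees of freedom). The script was tested on simulated data. Two-sided p-values were adjusted by Benjamini-Hochberg over the genes tested, for each of 11 comparisons. Both muscles came from the same birds, but the labels do not tie libraries to birds, so p-values measure the spread between libraries. Deviations of same-numbered SOL and PEM libraries correlated at 0.163 to 0.295 on CONT, 0.0749 to 0.362 on SHFD and -0.119 to 0.0944 on LHFD, and 4, 4 and 1 of the 4 pairs matched best with their own number, a hint from the data that numbers pair libraries on CONT and SHFD. The members, the 5 pathway lists, the 10 marker lists and the rule for named genes were chosen with earlier results of these data known. That rule takes all 10 members, the 4 list genes with the smallest p between muscles or 2 between diets, 6 fixed genes and the 2 most alike genes of each member called between muscles on CONT; list symbols were matched through 17 aliases. *PPRC1*, *RXRG*, *DGAT2*, *DBI*, *SLC27A1*, the further values of *PRKAG2*, *MCCC1* and *RYR3*, and the pathway list from the authors' annotation were added after values were seen. Alternatives were quantile normalization, scaling to equal nuclear-encoded sums, no expression filter, a pseudocount of 0.1, the replicate number as a block over all diets or within each diet, a fit of the groups compared alone, and leaving out libraries.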

Additional observations from a re-analysis of the deposited data

Results flagged for a closer look

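Of 60 groups of 4 libraries, 1 for each regulator and group, 2 held a library whose gap to the nearest other library exceeded Dixon's 95% critical value for 4 values, as a share of the group's range; chance gives about 1 in 20. *PPARA* stood at 8.18 FPKM in SHFD_SOL 4, against 2.83 to 3.37 FPKM in the other 3 libraries. That library also had the highest slow-fibre marker sum of all libraries, 34410 FPKM, and the lowest fast-fibre sum, 4140 FPKM; their part in its *PPARA* level was not tested. *ESRRB* stood at 7.88 FPKM in CONT_SOL 4, against 4.94 to 5.38 FPKM in the other 3.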

How the results depend on the processing

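No member's call changed direction under any alternative. Members called in SOL against PEM were 8 of 10 in each fit without 1 library on CONT, 7 to 8 on SHFD and 8 to 9 on LHFD. Leaving out 1 library gave 0 to 1 for SHFD against CONT in SOL, 0 to 1 for LHFD against CONT in SOL, 1 to 3 for LHFD against SHFD in SOL, 0 to 2 for SHFD against CONT in PEM and 0 to 3 for LHFD against CONT in PEM. A pseudocount of 0.1 gave 0 for LHFD against CONT in SOL, and no expression filter gave 0 for LHFD against CONT in PEM. Fitting only the groups compared gave 0 for LHFD against SHFD in SOL, 0 for SHFD against CONT in PEM and 0 for LHFD against CONT in PEM. Leaving out CONT_PEM 2 and LHFD_PEM 1 together gave 1 for SHFD against CONT in SOL (*PPARD*, adjusted p = 0.0437), 2 for SHFD against CONT in PEM and 1 for LHFD against CONT in PEM. Apart from the smaller number of samples, the cause was not tested.

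With the replicate number as a block within each diet, which treats a number as 1 bird, 8, 8 and 9 members were called in SOL against PEM on CONT, SHFD and LHFD, and no member's call changed. With the replicate block over all diets, *PPARGC1A* in LHFD against SHFD SOL (adjusted p = 0.0681) and *TFAM* in LHFD against CONT PEM (0.0568) were not called, and the members called in SOL against PEM were again 8, 8 and 9.

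Scaling moved the median of all genes for SOL against PEM on CONT to -0.05 with quantile normalization and 0.23 with equal nuclear-encoded sums, from 0.12. With quantile normalization, the share of called genes that were higher was 44.5%, against 60.6% without it, for SOL against PEM on CONT (71.9% with equal nuclear sums), 44.6% against 66% on LHFD, 68.4% against 29.5% for SHFD and CONT in SOL, 56.8% against 70.1% for LHFD and SHFD in SOL, 48.8% against 29.5% for LHFD and CONT in PEM and 72.7% against 59.1% for LHFD and SHFD in PEM.

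Over all genes, fitting only the groups compared gave 3 calls against 61 for SHFD and CONT in SOL, 41 against 97 for LHFD and SHFD in SOL, 0 against 117 for SHFD and CONT in PEM and 69 against 760 for LHFD and CONT in PEM. For SHFD and CONT in SOL other alternatives gave 23 (replicate block) to 138 (without CONT_PEM 2 and LHFD_PEM 1). For LHFD and CONT in SOL they gave 27 (pseudocount 0.1) to 101 (quantile normalization) against 57. The lowest count for LHFD and SHFD in PEM was 9 (replicate block) against 22. For SHFD and CONT in PEM there were 180 without CONT_PEM 2 and LHFD_PEM 1. The tests of diet effects between muscles gave at most 8 calls under the alternatives that did not leave out a single library.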
